A study of Mus musculus with 12 samples.

Results

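Of the genes that mark enlarging and mineralizing cartilage cells, 9 were followed in cultured mouse rib chondrocytes: Col10a1, Mmp13, Ibsp, Spp1, Alpl, Phospho1, Panx3, Enpp1 and Ank. They were taken by gene symbol from an expression table of 17922 genes, and all 9 were found and passed the filter on low counts in every comparison. The rule that picks them is their list of symbols, drawn up for known roles in hypertrophy and mineral deposition. It uses no measured value, but the list was chosen with earlier results of these data known. Col10a1, which encodes the type X collagen of hypertrophic cartilage, rose in both knockouts, and Spp1, which encodes osteopontin, fell in the LDH knockout. The other 7 genes passed the main test in neither knockout.

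In the growth cartilage, chondrocytes stop dividing, enlarge and lay down a matrix of type X collagen, and the most mature of them express collagenase and bone-type matrix proteins before the matrix calcifies. Mineral forms first in matrix vesicles, where PHOSPHO1 releases phosphate from phospholipid head groups and the alkaline phosphatase encoded by Alpl removes pyrophosphate, a blocker of crystal growth. ENPP1 makes extracellular pyrophosphate from ATP and ANK supports its release from the cell, so these proteins act against mineral, while bone sialoprotein (Ibsp) and osteopontin bind to it.

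The RNA came from primary rib chondrocytes, released by collagenase digestion, plated and cultured overnight, in 4 groups of 3 samples. The LDH knockout (LDH KO) was taken at postnatal day 5 from Col2-Cre mice with floxed Ldha on both chromosomes and a heterozygous Ldhb deletion, and the Acly knockout (Acly KO) at embryonic day E18.5 from Col2-Cre mice with floxed Acly on both chromosomes. Col2-Cre is a recombinase under a type II collagen promoter, active in cartilage cells, and cells where it was never active keep the floxed genes. Which cells of a culture these are is not given in the labels used here. Each control group (LDH C and Acly C) was of the same age as its knockout, from littermates on a mixed strain dominated by C57BL/6, and its genotype beyond the word control is not given in the labels used here. The stated questions were what reduced glycolysis (LDH) and reduced acetyl-CoA in the cytoplasm (Acly) do in skeletal development. No label says whether the samples of a group were separate animals, so p-values measure the spread between these samples, which may be technical.

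Libraries held 26.4 to 28.2 times 1000000 expected counts each. At that depth the floor of 3 counts corresponds to 0.107 to 0.114 counts per 1000000 counts (CPM), and this floor covers counting error only. Ldha, targeted in the LDH knockout, was at 84.0, 93.7 and 97.7 CPM there and at 904, 839 and 940 CPM in its controls, and fell by 3.29 on the log2 scale (adjusted p = 3.26e-07, edgeR). Ldhb, of which the LDH knockout lacks an allele, was at 15.5, 17.3 and 15.1 CPM there and at 13.1, 12 and 12 CPM in the controls, so its transcript count did not follow the labelled genotype, and where the deletion lies in the transcript is not given. Acly was at 79.0, 48.3 and 82.4 CPM in its knockout and at 188, 182 and 191 CPM in its controls, and fell by 1.41 (adjusted p = 0.0313, edgeR). Acly KO 2 stood apart from the other Acly libraries on the first principal component, and the Y-linked signal differed between libraries as given with the results it touches.

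The sequences just before the transcription start are shown for the 3 members whose values moved most clearly with a knockout: Col10a1 and Spp1, which passed the test, and Mmp13, which was next to the threshold in the Acly comparison. Each run is the 250 bases before a start annotated by RefSeq in mouse build GRCm38.p6, 5′ to 3′ on the plus strand: chr10:34389731-34389980 for Col10a1, chr9:7272264-7272513 for Mmp13 and chr5:104434861-104435110 for the first of 2 starts of Spp1. Capitals mark the letters TGTGGT (the core recognised by RUNX factors, which drive hypertrophy) or TGANTCA (the AP-1 element), searched on both strands, so that the RUNX core on the minus strand reads ACCACA.
Col10a1: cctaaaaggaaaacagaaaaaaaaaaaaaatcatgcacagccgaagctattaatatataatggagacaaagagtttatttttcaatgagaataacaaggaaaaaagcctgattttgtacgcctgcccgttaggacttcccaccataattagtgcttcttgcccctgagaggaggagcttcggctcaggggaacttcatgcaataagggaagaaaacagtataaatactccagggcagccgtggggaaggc
Mmp13: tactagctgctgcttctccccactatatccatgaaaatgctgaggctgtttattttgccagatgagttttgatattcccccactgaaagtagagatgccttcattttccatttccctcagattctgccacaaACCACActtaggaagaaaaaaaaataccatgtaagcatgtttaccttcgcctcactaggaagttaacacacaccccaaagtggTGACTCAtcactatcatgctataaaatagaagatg
Spp1: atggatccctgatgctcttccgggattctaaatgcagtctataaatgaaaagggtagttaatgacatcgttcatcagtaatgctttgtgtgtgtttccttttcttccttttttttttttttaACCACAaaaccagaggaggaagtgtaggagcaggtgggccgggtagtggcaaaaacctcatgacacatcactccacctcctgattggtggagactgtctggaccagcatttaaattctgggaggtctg
The RUNX core began 118 bases before the start of Mmp13, where an AP-1 match also lay 35 bases before it, and 128 bases before the first start of Spp1. Enpp1 held a RUNX core 144 bases before its start and Phospho1 an AP-1 match 224 bases before it. Neither set of letters was in this window of Col10a1, Ibsp, Alpl or Ank. Over all 32851 RefSeq promoters of the same length, 14.05% held the RUNX core and 6.75% the AP-1 letters. These matches describe letters only. The window of 8 of the 9 genes was in the table used, and Panx3 was not.

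Read counts were compared with edgeR's two-sided quasi-likelihood F test, and a gene is said to have risen or fallen where its Benjamini-Hochberg adjusted p over all genes tested was below 0.05. In the LDH comparison 2 of the 9 genes passed, 1 higher and 1 lower, where 2.49% of the 13321 genes tested passed. In the Acly comparison 1 of 9 passed, where 0.136% of 13973 genes did. Since the 9 were listed with earlier results of these data known, such shares are a description. At an unadjusted p under 0.05 the counts were 3 of 9 beside 19.6% of all genes for LDH, and 5 of 9 beside 15.8% for Acly. The median log2 fold change of the 9 genes was -0.02 for LDH, beside 0.01 over all genes tested, and -0.29 for Acly, beside 0.00.

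Knockout values lay wholly above the controls for 2 of 9 genes in the LDH comparison (Col10a1 and Panx3), beside 12.2% of all genes, and wholly below for 1 (Spp1), beside 12.1%. In the Acly comparison 3 genes lay wholly above (Col10a1, Phospho1 and Panx3), beside 9.73% of all genes, and 1 wholly below (Mmp13), beside 12.4%. The plot of every sample's level shows these positions.

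**Figure D1:**
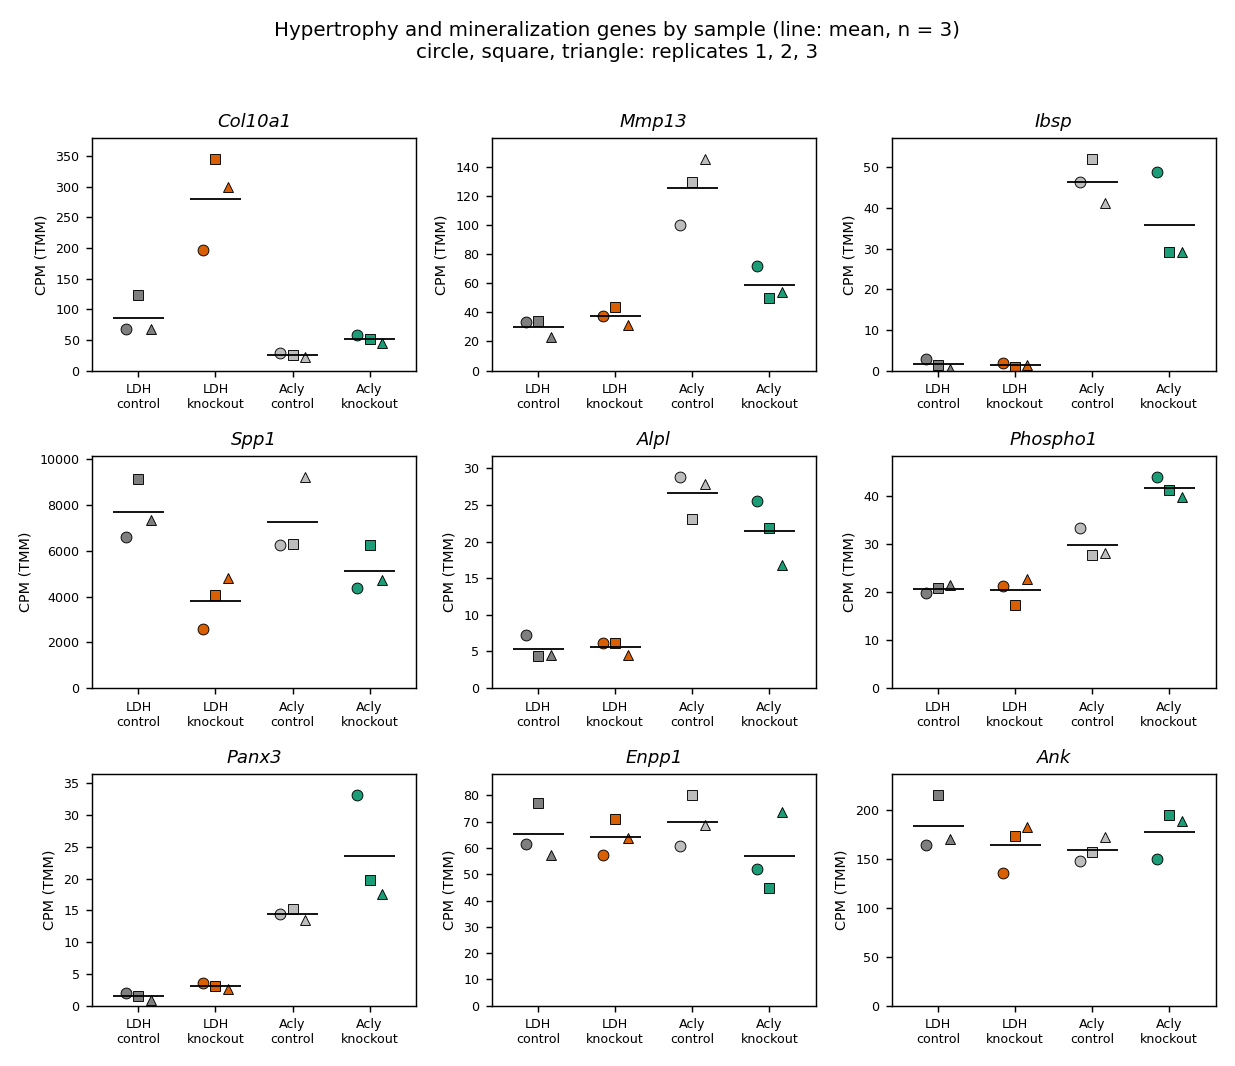
Level of each of the 9 genes in CPM (y axis, linear from 0) in the 3 samples of each group, with the group mean as a line and the replicate number as the symbol. Col10a1 is above its control range in all 6 knockout samples, and Ibsp, Alpl and Panx3 sit far lower in the LDH samples of postnatal day 5 than in the Acly samples of E18.5.

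Col10a1 (Entrez 12813) was the gene with a call in both knockouts. Its level, in CPM scaled by TMM over all 12 samples, was 197, 345 and 299 in LDH KO and 67.9, 123 and 68.2 in LDH C. All 3 knockout samples lay above all 3 controls, with LDH C 2 the highest control. On the log2 scale it rose by 1.70, with a standard error (SE) of 0.26 (adjusted p = 0.0118, edgeR), a 3.25-fold rise. In Acly KO it was at 57.4, 51.3 and 45.0 CPM, against 28.9, 25.4 and 22.1 CPM in Acly C, and the groups did not overlap. That log2 fold change was 1.02 (SE 0.13, adjusted p = 0.0314, edgeR), a 2.03-fold rise. The difference between both knockout effects was 0.69 on the log2 scale (SE 0.33, adjusted p = 0.394, edgeR), so the larger value in LDH was not separated from that in Acly.

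The direction of Col10a1 was upward in all 16 alternative analyses of the LDH comparison and all 15 of the Acly comparison, while the call was lost in 3 and 8 of them. For LDH the call was lost without LDH C 3 (1.56, adjusted p = 0.0614, edgeR); adjusted p ranged from 0.000426 to 0.271 over the alternatives. For Acly it was lost without scaling, with all 12 samples in the fit, with the Y-linked covariate and on leaving out any single sample other than Acly KO 2. Without Acly KO 2, the library that stood apart, Col10a1 rose by 1.01 (adjusted p = 0.00625, edgeR). Without Acly C 3, by comparison, the log2 fold change was 0.93 (adjusted p = 0.233, edgeR), and over the alternatives it ranged from 0.90 to 1.12 with adjusted p from 6.76e-09 to 0.233.

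Y-linked transcripts moved with the LDH groups. The summed CPM of 4 Y-linked genes was at most 0.0367 in LDH KO and 93.0, 102 and 0.590 in LDH C, so only LDH C 3 resembled the knockouts in this respect. With the logarithm of this sum as a covariate, Col10a1 differed by 2.22 (adjusted p = 0.271, edgeR) and Spp1 by -0.87 (adjusted p = 0.384, edgeR), and 3 genes in all were called. Between the 3 LDH knockouts and LDH C 3 alone, an alternative chosen after seeing the data in which the lone control is assumed to vary like the knockouts, Col10a1 differed by 2.03 (adjusted p = 0.102, edgeR) and Spp1 by -0.94 (adjusted p = 0.276, edgeR). In the Acly set the sum was 0.0755, 74.3 and 82.8 CPM in the knockouts and 0.375, 121 and 2.83 CPM in the controls. There Col10a1 was higher in the knockout by 1.18 on the log2 scale among the 3 low samples (1 knockout, 2 controls). Among the 3 high ones (2 knockouts, 1 control) it was higher by 0.92.

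Col2a1, the main collagen of cartilage before hypertrophy, also rose in both knockouts, by 1.02 on the log2 scale in LDH (SE 0.16, adjusted p = 0.0123, edgeR) and by 1.05 in Acly (SE 0.11, adjusted p = 0.0138, edgeR). The level of Col10a1 for each 1000 of Col2a1, both in transcripts per 1000000 transcripts (TPM, which corrects for gene length), was 17.0, 22.3 and 30.4 in LDH KO and 10.7, 22.6 and 10.7 in LDH C. LDH C 2 lay among the knockouts, and the mean log2 difference of the ratio was 0.72 (exact permutation test, two-sided, p = 0.3). The ratio in Acly KO was 9.12, 6.80 and 6.19, against 8.66, 7.0 and 6.59 in Acly C. The Acly values interleaved, with a mean log2 difference of -0.02 (exact permutation test, two-sided, p = 0.9). With 3 samples against 3 this test cannot give a p below 0.1.

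**Figure D2:**
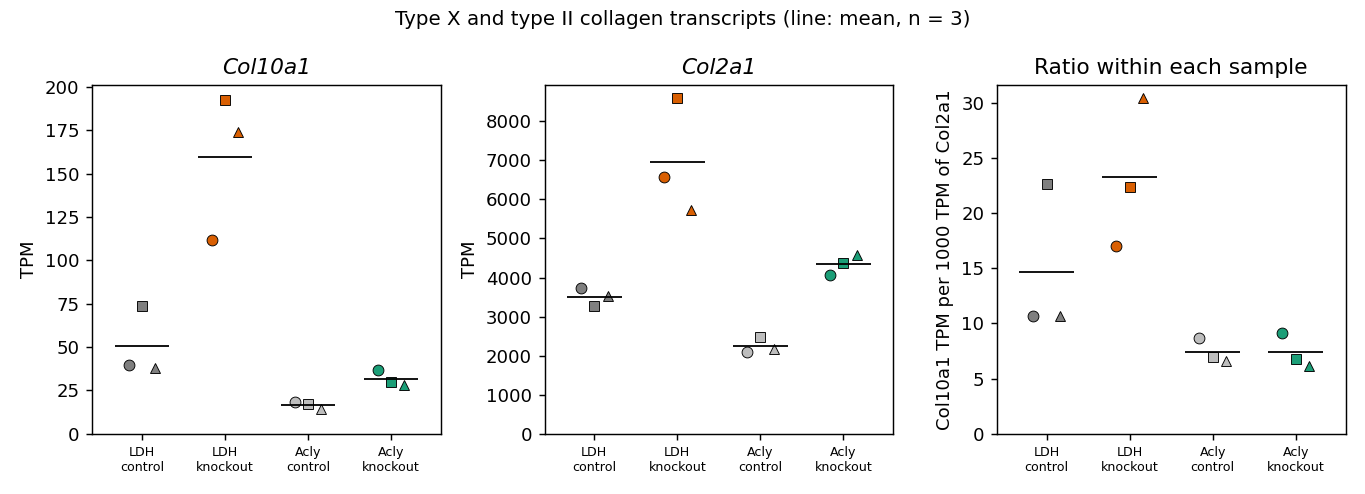
TPM of Col10a1 and of Col2a1, and Col10a1 TPM for each 1000 TPM of Col2a1 (y axes, linear from 0), in the 3 samples of each group with the group mean as a line. Both collagens are higher in every knockout sample than in its controls, while the ratios overlap in both sets.

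Chondrocyte markers moved with Col10a1 in LDH and in part in Acly. Of 14 written, 13 were tested in LDH and 9 rose, beside 2.49% of all genes called. All 13 lay wholly above the controls, beside 12.2%. In Acly 14 were tested and 3 rose (Col2a1, Col9a3 and Comp), beside 0.136% of all genes called. There 6 of the 14 lay wholly above the controls, beside 9.73%, and 13 had a log2 fold change above 0 (Hapln1 was at -0.08). Their summed TPM was 4329 to 4915 in LDH C and 7687 to 11047 in LDH KO, and 3868 to 4623 in Acly C and 6551 to 7394 in Acly KO. The 2 most abundant were Col2a1 and Acan, the gene for the main cartilage proteoglycan. Col2a1 made up most of these sums. It averaged 3508 and 6969 TPM in LDH C and LDH KO, and 2245 and 4335 TPM in Acly C and Acly KO. Beside the Acly rise of Col10a1, markers of fibroblasts and perichondrium had the opposite order: their summed TPM was 1675 to 2158 in Acly C and 593 to 1417 in Acly KO, lowest in Acly KO 2 and without overlap. Of these 8 markers, 5 lay wholly below the controls, beside 12.4% of all genes. By edgeR 0 passed and 3 had an unadjusted p under 0.05, beside 15.8% of all genes. Dcn alone passed by DESeq2, beside 1.77%. In LDH their sums overlapped, at 354 to 675 TPM in the controls and 470 to 662 TPM in the knockouts. In a bulk sample, fewer cells of a type and less RNA per cell cannot be told apart, and the part of cell makeup in the Col10a1 difference was not tested.

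Mmp13 (Entrez 17386) encodes collagenase 3, which cuts type II collagen in the last hypertrophic cells. In LDH KO it was at 37.6, 43.8 and 31.3 CPM and in LDH C at 33.3, 34.1 and 22.7 CPM. These groups overlapped, with a log2 difference of 0.32 (SE 0.16, adjusted p = 0.313, edgeR). In Acly KO it was at 71.8, 49.8 and 53.9 CPM, all under the 100.4, 130 and 145 CPM of Acly C. The log2 difference was -1.09 (SE 0.17), a ratio of 0.471, and it missed the threshold (adjusted p = 0.0694, edgeR). It passed in 4 of 15 alternatives, among them DESeq2 and the analysis without Acly KO 2 (-0.99, adjusted p = 0.0186, edgeR), with adjusted p over the 15 from 2.08e-07 to 0.359.

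The estimates for Mmp13 thus had opposite signs in the sets, though neither passed. The difference of both effects was 1.42 on the log2 scale (SE 0.26) and missed the threshold (adjusted p = 0.0580, edgeR). That difference passed in 4 of 17 alternatives, with adjusted p from 0.000125 to 0.175. Over all genes 0.161% passed this test of the difference between knockouts by edgeR, and 1.49% by DESeq2. None of the 9 genes passed by edgeR, 2 (Mmp13 and Phospho1) had an unadjusted p under 0.05 beside 13.0% of all genes, and Mmp13 alone of the 9 passed by DESeq2. Within the Acly set, Mmp13 was lower in the knockout by 0.75 among the low Y-linked samples and by 1.33 among the high ones, in log2 CPM.

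Spp1 (Entrez 20750), the gene for osteopontin, a secreted phosphoprotein made by hypertrophic chondrocytes, osteoblasts and macrophages, was the most abundant of the 9 by far. It stood at 2580, 4080 and 4829 CPM in LDH KO and at 6596, 9162 and 7332 CPM in LDH C. Every knockout sample was below every control. It fell by 1.01 on the log2 scale (SE 0.21, adjusted p = 0.0384, edgeR), a ratio of 0.497. In Acly KO it was at 4376, 6274 and 4711 CPM and in Acly C at 6271, 6320 and 9230 CPM. Acly KO 2 lay just above the lowest control, and the log2 difference was -0.49 (SE 0.19, adjusted p = 0.289, edgeR). The effects in both sets differed by -0.50 (SE 0.31, adjusted p = 0.503, edgeR).

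Like the Col10a1 call in Acly, the Spp1 call in LDH was lost on leaving out any of 5 of the 6 samples. It held without LDH KO 3 (-1.21, adjusted p = 0.0126, edgeR) and was lost without each of the others, where the log2 difference lay between -1.11 and -0.79. Over all 16 alternatives adjusted p ran from 0.0108 to 0.384.

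Ibsp (Entrez 15891) encodes bone sialoprotein, which marks terminal chondrocytes and osteoblasts. In the LDH set it was near the bottom of the range, at 1.77, 0.905 and 1.36 CPM in LDH KO and 2.87, 1.46 and 0.474 CPM in LDH C. The controls spanned the knockouts, with a log2 difference of -0.26 (SE 0.52, adjusted p = 0.828, edgeR), and the sign of this difference turned in 3 of 16 alternatives, so no direction is given. In the Acly set it was at 48.9, 29.1 and 29.2 CPM in the knockouts and 46.4, 52.0 and 41.2 CPM in the controls. Acly KO 1 lay within the control range and the other 2 knockouts below it, with a log2 difference of -0.37 (SE 0.19, adjusted p = 0.371, edgeR). The other members of its protein family in the table, Dmp1 and Mepe, averaged at most 0.117 CPM in any group and were not tested.

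Most tested markers of bone cells were lower in the LDH knockout, as Spp1 was. Of 12 osteoblast and osteocyte markers, 7 were tested in LDH and 3 fell: Sp7, a factor needed for osteoblast formation, by 1.22 on the log2 scale (SE 0.20, adjusted p = 0.0164, edgeR), Col1a2, a chain of the type I collagen of bone, by 1.0 (SE 0.17, adjusted p = 0.0196, edgeR), and Bglap2, an osteocalcin gene, by 2.40 (SE 0.38, adjusted p = 0.0156, edgeR). Bglap2 has a near-identical copy in Bglap, so how its reads were divided is uncertain. The 3 calls in this list stood beside 2.49% of all genes. Of the 7 tested in LDH, 6 lay wholly below the controls, beside 12.1% of all genes. The remaining marker, Smpd3, went the other way with overlapping groups (1.02, SE 0.35, adjusted p = 0.155, edgeR). Smpd3 is also in the regulator and phosphate lists below. The summed TPM of the list was 253 to 364 in LDH C and 73.2 to 153 in LDH KO, and the summed CPM 281 to 482 and 165 to 207, both without overlap. In the Acly set 0 of 9 tested markers passed by edgeR and 3 had an unadjusted p under 0.05, beside 15.8% of all genes. By DESeq2 2 passed, Bglap lower and Smpd3 higher, beside 1.77%. There 4 of the 9 had a log2 difference above 0, the median was -0.05 and no tested marker lay wholly below the controls. The Acly sums depended on the scale: in TPM they were 900 to 1025 in the controls and 480 to 808 in the knockouts, while in CPM they overlapped, at 1752 to 2137 in the controls and 864 to 1930 in the knockouts. The 2 most abundant markers were Col1a1 and Col1a2, and Dmp1 and Mepe were at or near 0.

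Of 12 osteoclast and macrophage markers, 9 were tested and 0 passed in either comparison by edgeR, with 2 in LDH and 1 in Acly at an unadjusted p under 0.05 and the same numbers by DESeq2. Their summed TPM was 178 to 205 in LDH C and 148 to 191 in LDH KO, and 308 to 368 in Acly C and 335 to 386 in Acly KO, so these ranges overlapped in both sets. Ctsk and Cd68 were the most abundant, and Calcr was at or below 3 counts in all 12 samples. Adipocyte markers, by contrast, rose in LDH for 6 of 9 tested, beside 2.49% of all genes called. Their summed TPM was 32.9 to 40.8 in LDH C and 77.0 to 190 in LDH KO. In Acly 0 of 9 adipocyte markers passed by edgeR, 0 at an unadjusted p under 0.05 and 0 by DESeq2. The part of these cells in the Spp1 values was not tested.

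**Figure D3:**
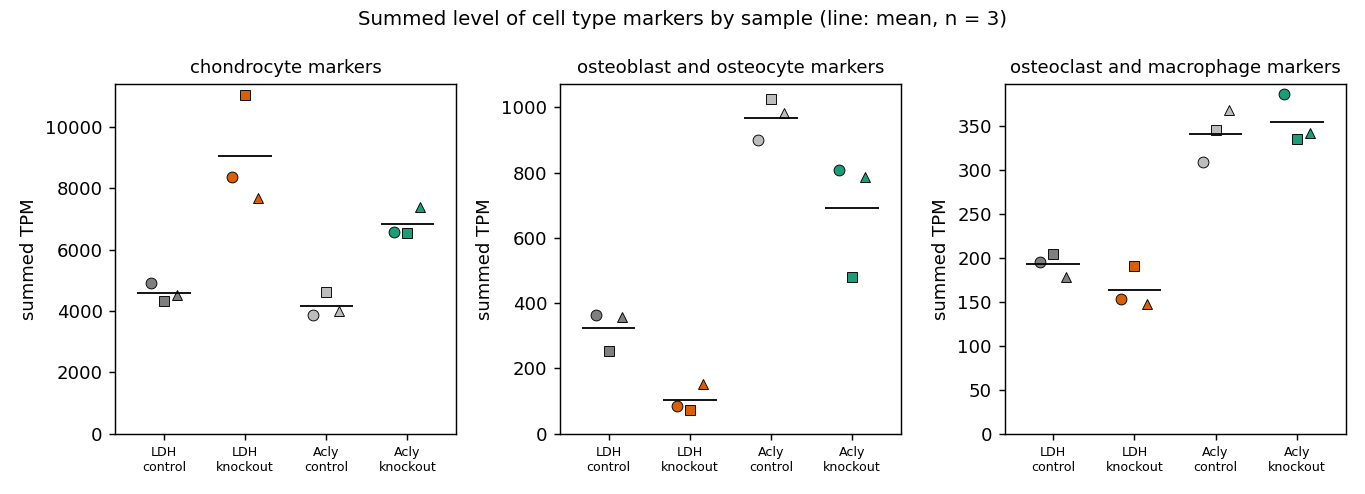
Summed TPM of the markers of chondrocytes, of osteoblasts and osteocytes, and of osteoclasts and macrophages (y axes, linear from 0) in the 3 samples of each group, with the group mean as a line. Chondrocyte sums are higher in every knockout sample than in its controls and the macrophage sums overlap; bone cell sums are lower in every knockout sample on this scale, but in the Acly set they overlap in CPM.

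Alpl (Entrez 11647), the tissue-nonspecific alkaline phosphatase, differed little within either set. It was at 6.19, 6.22 and 4.50 CPM in LDH KO and 7.31, 4.34 and 4.54 CPM in LDH C, and the groups overlapped. The log2 difference was 0.06 (SE 0.23, adjusted p = 0.910, edgeR), and its sign turned in 4 of 16 alternatives. In Acly KO it was at 25.6, 21.8 and 16.8 CPM and in Acly C at 28.8, 23.1 and 27.9 CPM. Acly KO 1 lay within the control range, and the log2 difference was -0.30 (SE 0.16, adjusted p = 0.381, edgeR).

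Phospho1 (Entrez 237928), the phosphatase of matrix vesicles, was at 21.3, 17.3 and 22.8 CPM in LDH KO and 19.8, 20.8 and 21.6 CPM in LDH C. The controls lay inside the knockout range, with a log2 difference of -0.02 (SE 0.12, adjusted p = 0.950, edgeR). In Acly KO it was at 44.0, 41.3 and 39.8 CPM, above the 33.5, 27.8 and 28.3 CPM of Acly C in every sample. The log2 difference there was 0.50 (SE 0.10), which missed the threshold by edgeR (adjusted p = 0.130) and passed by DESeq2 (adjusted p = 0.00803), with a range over 15 alternatives from 0.00803 to 0.619. Among low and high Y-linked samples of the Acly set, the knockout difference of Phospho1 was 0.52 and 0.55 in log2 CPM. The same split gave -0.15 and -0.27 for Alpl, -0.80 and -0.22 for Spp1 and -0.31 and -0.48 for Enpp1. It turned the sign for Ibsp (0.16 and -0.83) and Ank (-0.09 and 0.29). Each of these differences rests on a single library on 1 side, Acly KO 1 among the low samples and Acly C 2 among the high ones.

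Panx3 (Entrez 208098) encodes pannexin 3, a channel of prehypertrophic chondrocytes and osteoblasts that passes ATP. In the LDH set it was low, at 3.54, 3.11 and 2.64 CPM in the knockouts and 1.98, 1.53 and 0.948 CPM in the controls, and the groups did not overlap. The log2 difference was 1.05 (SE 0.28, adjusted p = 0.0841, edgeR). It passed by DESeq2 (adjusted p = 0.0276) and in none of the other 15 alternatives, whose adjusted p reached 0.283. In Acly KO it was at 33.2, 19.8 and 17.5 CPM and in Acly C at 14.5, 15.2 and 13.5 CPM. Again every knockout was above every control, Acly KO 1 most, and the log2 difference was 0.72 (SE 0.22, adjusted p = 0.244, edgeR). That difference was 1.24 among the low Y-linked samples, which include Acly KO 1, and 0.29 among the high ones.

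By DESeq2 as the test, 3 of the 9 genes passed in LDH (Col10a1, Spp1 and Panx3), beside 6.76% of all genes, and 3 in Acly (Col10a1, Mmp13 and Phospho1), beside 1.77%.

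The genes that hold pyrophosphate up varied least over the 12 samples, with standard deviations of log2 CPM of 0.25 for Enpp1 and 0.19 for Ank. Enpp1 (Entrez 18605) was at 57.3, 70.9 and 63.6 CPM in LDH KO and 61.3, 77.2 and 57.4 CPM in LDH C, overlapping, with a log2 difference of -0.03 (SE 0.12, adjusted p = 0.915, edgeR). It was at 52.0, 44.6 and 73.7 CPM in Acly KO and 60.7, 80.2 and 68.6 CPM in Acly C, also overlapping, with a log2 difference of -0.29 (SE 0.18, adjusted p = 0.429, edgeR). Ank (Entrez 11732) was at 136, 174 and 183 CPM in LDH KO and 165, 216 and 170 CPM in LDH C, with a log2 difference of -0.16 (SE 0.13, adjusted p = 0.539, edgeR). Its levels in Acly KO were 150.1, 195 and 189 CPM and in Acly C 148, 157 and 173 CPM, with a log2 difference of 0.18 (SE 0.12, adjusted p = 0.479, edgeR). The Ank groups overlapped in both sets, and Enpp1 in LDH turned sign in 4 of 16 alternatives and Ank in 1.

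**Figure D4:**
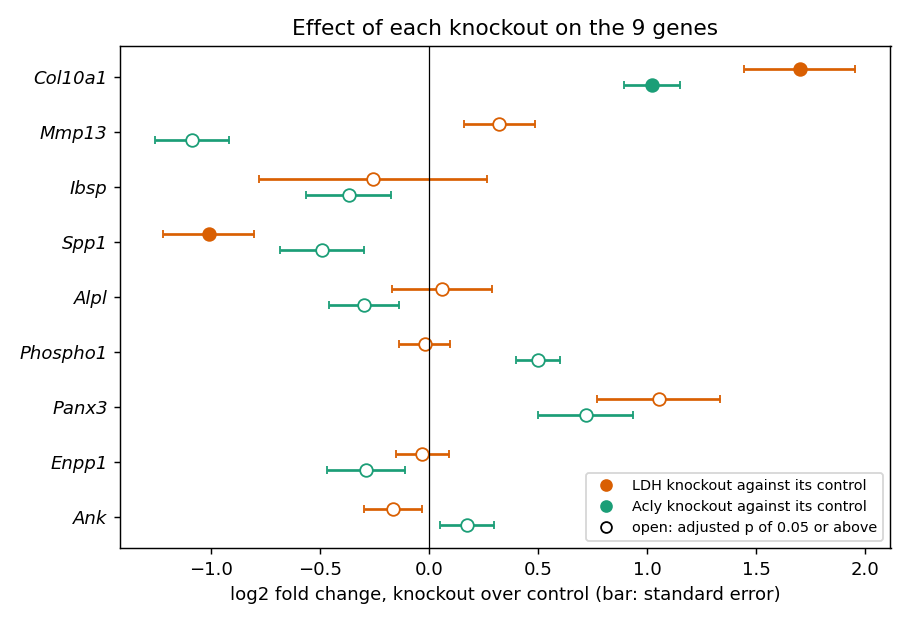
Log2 fold change of each gene, knockout over its own control (x axis), with its standard error as a bar, for LDH (orange) and Acly (green), and filled points where the adjusted p was below 0.05 by edgeR. Col10a1 at 1.70 and 1.02 and Spp1 at -1.01 in LDH are the 3 filled points, and Mmp13 lies on opposite sides of 0 in the 2 sets.

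In TPM, which can be compared between genes, Spp1 held 94.1% to 98.0% of the summed level of the 9 genes in each group. In LDH C the order below Spp1 (10163 ± 2037 TPM, SD, n = 3) was Ank (95.4 ± 17.8), Col10a1 (50.5 ± 20.3), Mmp13 (20.6 ± 5.07), Phospho1 (20.1 ± 0.756), Enpp1 (17.9 ± 3.45), Alpl (4.06 ± 1.23), Ibsp (1.53 ± 1.16) and Panx3 (1.09 ± 0.400). Mmp13 and Phospho1, Phospho1 and Enpp1, and Ibsp and Panx3 were neighbours whose samples overlapped there. In LDH KO, Spp1 was at 4956 ± 1529 TPM and Col10a1, at 159 ± 42.1 TPM, stood above Ank at 83.5 ± 13.2 TPM with no overlap between them. The order from Mmp13 down to Alpl was that of LDH C, followed by Panx3 at 2.20 ± 0.301 TPM above Ibsp at 1.25 ± 0.411 TPM.

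The Acly controls had another order. Below Spp1 (10746 ± 2495 TPM) came Mmp13 (96.2 ± 19.5), Ank (92.7 ± 9.03), Ibsp (49.4 ± 7.16), Phospho1 (32.35 ± 2.36), Alpl (22.2 ± 1.73), Enpp1 (21.1 ± 3.61), Col10a1 (16.6 ± 2.0) and Panx3 (11.8 ± 1.0). The overlapping neighbours were Mmp13 with Ank, Alpl with Enpp1 and Enpp1 with Col10a1. In Acly KO, Spp1 was at 7104 ± 969 TPM and Ank, at 97.7 ± 10.2 TPM, was above Phospho1 at 43.0 ± 3.87 TPM without overlap. Phospho1, Mmp13 (42.7 ± 10.6), Ibsp (36.2 ± 13.1) and Col10a1 (31.7 ± 4.66) overlapped each with the next, as did Panx3 (18.3 ± 7.34), Alpl (16.6 ± 3.8) and Enpp1 (16.4 ± 4.54).

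The control groups differed in 6 of the 9 genes, beside 55.0% of all 14251 genes tested. Age, mouse line and any library batch coincide with these groups and cannot be told apart. Acly C was higher than LDH C for Ibsp by 4.84 on the log2 scale (SE 0.39, adjusted p = 9.47e-07, edgeR), a 28.7-fold difference, and for Panx3 by 3.27 (SE 0.28, adjusted p = 1.33e-06, edgeR). Alpl was higher by 2.30 (SE 0.22, adjusted p = 2.62e-06, edgeR), Mmp13 by 2.06 (SE 0.19, adjusted p = 2.53e-06, edgeR) and Phospho1 by 0.53 (SE 0.11, adjusted p = 0.00122, edgeR). Col10a1 alone went the other way among the genes called, at -1.76 (SE 0.24, adjusted p = 4.90e-05, edgeR). Spp1 (-0.08), Enpp1 (0.10) and Ank (-0.20) did not pass, and the sign for Spp1 turned without scaling (0.09). Markers of other cell types differed between the control groups as well. In summed TPM, LDH C against Acly C, bone cell markers were at 253 to 364 against 900 to 1025, with 6 of 9 tested called higher in Acly C. Skeletal muscle markers were at 27.9 to 51.7 against 365 to 442 (10 of 10 higher) and endothelial markers at 5.02 to 8.96 against 49.3 to 54.7 (5 of 5 higher). Fibroblast and perichondrium markers were at 354 to 675 against 1675 to 2158 (8 of 8 higher), and adipocyte markers at 32.9 to 40.8 against 176 to 262 (9 of 9 higher). Osteoclast and macrophage markers were at 178 to 205 against 308 to 368 (5 of 9 higher). Chondrocyte markers overlapped, at 4329 to 4915 against 3868 to 4623 (9 of 14 higher, 1 lower). Over all 14251 genes, 4184 were called higher in Acly C. The part of these cells in the differences was not tested.

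Among 25 regulators of hypertrophy, 23 were tested in LDH, and 1 rose and 1 fell, beside 2.49% of all genes called. At an unadjusted p under 0.05 there were 10 in LDH, beside 19.6% of all genes. By DESeq2 3 passed, 2 of them higher, beside 6.76%. Fgfr3, a receptor that restrains chondrocyte division, went from 50.3 ± 9.54 CPM in LDH C to 99.2 ± 8.12 in LDH KO (SD, n = 3), a log2 rise of 0.98 (SE 0.13, adjusted p = 0.00731, edgeR). Sp7, also among the bone cell markers above, went from 20.7 ± 2.32 to 8.91 ± 2.78 CPM. In Acly all 25 were tested and 0 passed by edgeR. At an unadjusted p under 0.05 there were 5, beside 15.8% of all genes, and by DESeq2 3, beside 1.77%. The lowest p values were those of Smpd3, a sphingomyelinase needed for mineralization, at 1.5 (SE 0.26, adjusted p = 0.0894, edgeR), and of Ihh, the hedgehog ligand of prehypertrophic cells, at 1.40 (SE 0.25, adjusted p = 0.101, edgeR). Ihh was at 1.98 ± 0.621 CPM in Acly C and 5.18 ± 0.784 CPM in Acly KO, without overlap. The median log2 fold change of the list was 0.06 in LDH and 0.15 in Acly.

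Of 16 genes listed under phosphate and pyrophosphate handling, some of which have other roles, 13 were tested in LDH. Of these, 2 rose, beside 2.49% of all genes called. At an unadjusted p under 0.05 there were 5 in LDH, beside 19.6% of all genes. By DESeq2 3 passed, beside 6.76%. Mgp, matrix Gla protein, an inhibitor of calcification, went from 24.9 ± 6.18 CPM in LDH C to 54.6 ± 17.4 CPM in LDH KO (log2 fold change 1.13, SE 0.23, adjusted p = 0.0351, edgeR). Enpp2, autotaxin, a lysophospholipase D related to ENPP1, went from 20.6 ± 6.17 to 40.7 ± 9.01 CPM (0.98, SE 0.21, adjusted p = 0.0442, edgeR). In Acly 15 were tested and 0 passed by edgeR. At an unadjusted p under 0.05 there were 4, beside 15.8% of all genes, and by DESeq2 4, beside 1.77%. Slc20a1, a sodium-phosphate transporter, was at 122 ± 13.6 CPM in LDH C and 89.8 ± 8.48 in LDH KO (-0.44, SE 0.10, adjusted p = 0.0547, edgeR), and at 135 ± 11.5 CPM in Acly C and 99.1 ± 0.730 in Acly KO (-0.43, SE 0.09, adjusted p = 0.159, edgeR). Its groups did not overlap in either set, and both differences missed the threshold by edgeR and passed by DESeq2. The list's median was 0.07 in LDH and 0.11 in Acly.

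The list of matrix breakdown holds proteases and also inhibitors of metalloproteinases. All its 11 genes were tested in both sets and 0 passed by edgeR in either. At an unadjusted p under 0.05 there were 6 in LDH and 3 in Acly, beside 19.6% and 15.8% of all genes. By DESeq2 there were 4 in LDH, all lower, and 1 in Acly, Mmp3, beside 6.76% and 1.77%. The lowest p values in LDH were those of Ctsk, cathepsin K, at -0.42 (SE 0.10, adjusted p = 0.0573, edgeR), and Adamts5, an aggrecanase, at -0.54 (SE 0.15, adjusted p = 0.0864, edgeR). In Acly they were those of Mmp3, stromelysin 1, at -2.24 (SE 0.44, adjusted p = 0.119, edgeR), and Mmp9, gelatinase B, at -0.57 (SE 0.17, adjusted p = 0.244, edgeR). Mmp3 was at 79.4 ± 26 CPM in Acly C and 16.6 ± 11.5 CPM in Acly KO, without overlap. The medians, over proteases and inhibitors together, were -0.09 in LDH and -0.11 in Acly.

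**Figure D5:**
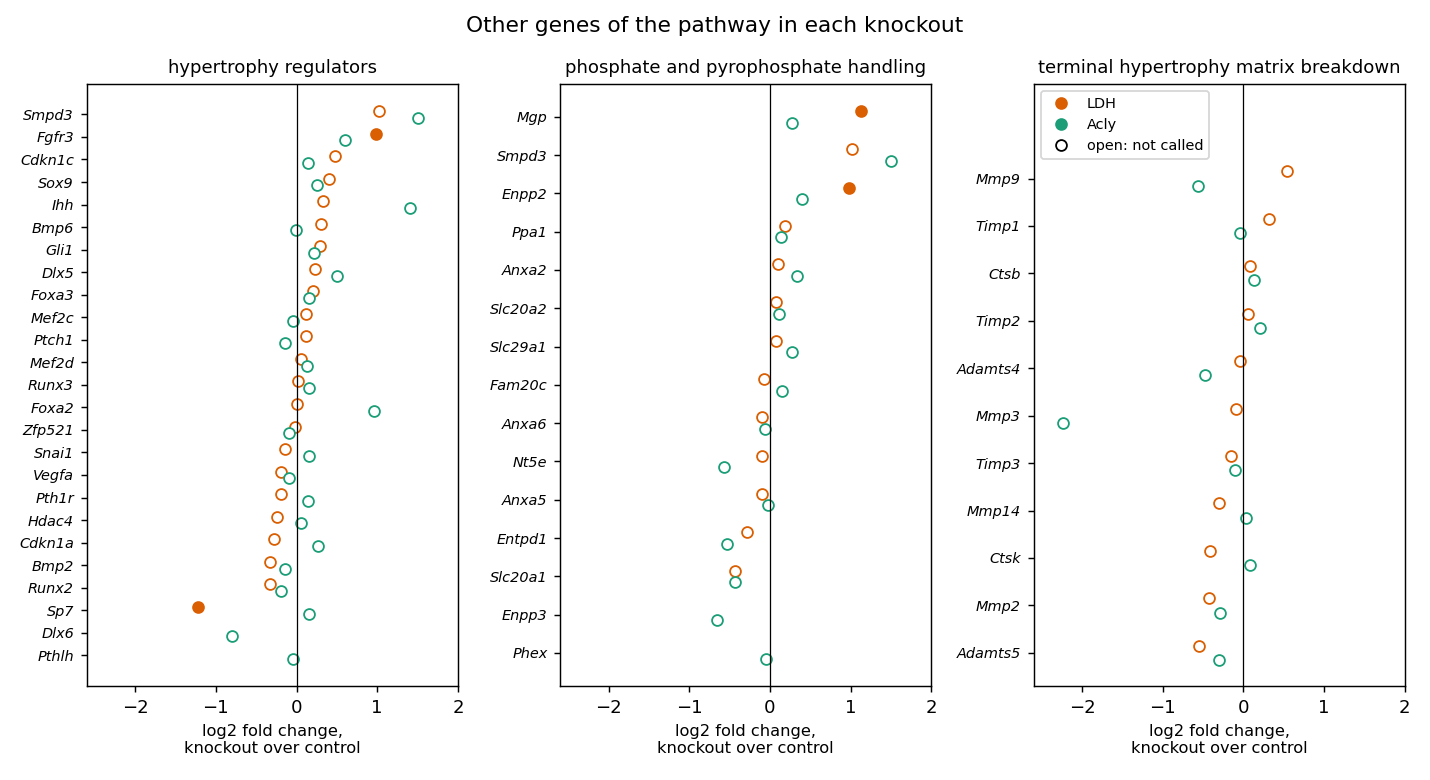
Log2 fold change, knockout over control (x axis), of the tested genes of each pathway list for LDH (orange) and Acly (green), with filled points where the adjusted p was below 0.05 by edgeR. Filled points are Fgfr3, Mgp and Enpp2 to the right of 0 and Sp7 to the left, all in LDH, while no Acly point is filled.

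Profiles over the 12 samples were compared by the root mean square difference of log2 CPM, centred per gene, among the 10574 genes averaging 5 CPM or more. These nearest profiles are a description, since the samples share the step between both sets. The nearest to Col10a1 were Ctgf and A2m (both 0.50), Loxl4 (0.55), Ptx3 (0.56) and Thbs1 (0.58), beside a standard deviation of 1.34 for Col10a1 itself. Ibsp, with a standard deviation of 2.62, had Phf11d (0.55), Rtp4, Cd248 and Mndal (each 0.56) and Dpt (0.59). Alpl, with 1.14, had Tagln2 (0.25), Clec11a, Egfl7 and Csrp2 (each 0.26) and Adgre1 (0.27). The 5 nearest to Panx3 were Mgst1 (0.40), Smpd3 (0.44), Tie1 (0.45), and Mgp and Gsta4 (both 0.46). Those nearest to Spp1 were Pqlc3 and Ppef1 (both 0.29), Slc20a1 (0.30), Sptb (0.31) and Arfgap3 (0.32). Within the 9, Enpp1 and Ank were the closest pair (0.26), followed by Spp1 with Ank (0.43). This measure is small for any 2 genes that vary little, as these do (standard deviations of 0.25 for Enpp1, 0.19 for Ank and 0.52 for Spp1). The nearest of the 9 to Col10a1 was Ank at 1.27, close to the standard deviation of Col10a1 itself, so none of the 9 had a like profile.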

How the data were processed

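The members and gene lists were chosen with earlier results of these data known. Reads were aligned with HISAT2 2.0.4 to mm9, per the submitters' processing notes; the counting program, annotation and strand setting are not given in the sources used here. Per the file headers, the authors deposited a read count, FPKM and TPM for each gene and sample. The deposited read counts were taken to be expected counts and rounded, since 7.32% to 8.16% of a sample's values differ from a whole number by any amount; how the authors made them is not given in the sources used here. Sample groups came from titles. Each knockout was tested against its own control (6 samples) with edgeR 4.0.16 in R 4.3.3 (TMM, filterByExpr, quasi-likelihood F test), and the difference of effects and the controls in a fit of all 12. SE was obtained from the log2 fold change over the root of F. Levels are CPM with TMM factors over 12 samples, and deposited TPM. The authors' deposited FPKM went into limma 3.58.1 on log2(FPKM + 1) and log2(FPKM + 0.1), for genes with mean FPKM of at least 0.5. Other alternatives were DESeq2 1.42.0, other scaling, no filter, a replicate block, leaving out each sample, all 12 samples in the fit and a Y-linked covariate. The code was tested on simulated data. Genes named are the 9, the 3 targeted genes, and in each pathway list those called or else the 2 with the lowest p. Also named are the 2 most abundant markers of a list and the 5 nearest profiles of some members. Others (Acp5, Hapln1, Dmp1, Mepe, Calcr, and markers called) were named after their values were seen. Promoters are from RefSeq GRCm38.p6; the files' build differs, so no other coordinates are given.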

Additional observations from a re-analysis of the deposited data

How the results depend on the processing

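Of 279 results of single genes of the set under alternatives in LDH and Acly, 241 kept direction and side of the threshold, 18 lost the call, 6 gained it and 14 changed sign. LDH genes called, 332, became 901 with DESeq2, 3 with the Y-linked covariate and 15 in low Y-linked samples only (chosen after seeing the data), and 95 to 1068 on leaving out a sample; members called, 2, became 0 with that covariate or those samples and 0 to 2 on leaving out a sample. Acly genes called, 19, became 11 without scaling, 32 without the filter, 247 with DESeq2, 31 with all 12 samples, 6 with the covariate and 0 to 132 on leaving out a sample; members called, 1, became 0 without scaling, 2 without the filter, 3 with DESeq2, 0 with the covariate and 0 to 2 on leaving out a sample. Interaction genes called, 23, became 213 with DESeq2 and 5 to 143 on leaving out a sample.

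With the replicate number as a block, 362 LDH, 8 Acly, 5 interaction and 4177 control genes were called (7844 without it), and members called stayed at 2 in LDH and 1 in Acly. Same-numbered samples correlated at -0.22 to 0.05, and 1 of 3 numbers in LDH and 0 of 3 in Acly matched best with their own, so the numbers were not taken as pairs.

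Sign changes, none in a call, were Ibsp in LDH (2.25 with the covariate, 1.49 in low Y-linked samples, -0.68 to 0.46 leaving out a sample), Enpp1 in LDH (0.24, 0.15, -0.11 to 0.10), Ank in LDH with the covariate (0.013), Alpl in LDH (-0.080 to 0.34), Phospho1 in LDH (-0.10 to 0.091), Ibsp in the interaction (-0.30 to 0.84), Spp1 between controls (0.090 without scaling, 0.065 with the block, -0.29 to 0.024), Enpp1 between controls (-0.015 to 0.20) and the Acly ratio of Col10a1 to Col2a1 (-0.18 to 0.10). The cause was not tested. Levels near 1 CPM, as for Ibsp and Panx3 in LDH, carry the widest errors.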
